A study of Homo sapiens with 15 samples.

Results

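All H3K4me3 and H3K27ac peaks on human chromosome 9 were followed in a breast cancer cell line and in its lung and brain metastatic sub-populations. The members are the 3411 consensus peaks that the deposited count tables place on chromosome 9, of 84767 peaks in all. They comprise 947 of the 22572 peaks of H3K4me3 and 2464 of the 62195 of H3K27ac. The chromosome had been singled out for its low level in BrM2 cells, so its overall level is described here without a test, and only departures of single peaks from the level of their surroundings are tested. MDA-MB-231 (Par) is a human line of triple-negative breast cancer. LM2 and BrM2 are sub-populations selected from it in vivo, LM2 for the lung and BrM2 for the brain. Per the labels, all were grown for 3 days with 10% serum and fixed for 10 min in 1% formaldehyde. Each line had 2 replicates for each mark, which gives 12 libraries, and the 3 input samples were not analysed here. A metastatic line is a single selected population, so a difference from Par describes that population.

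H3K4me3 is a histone mark placed at active promoters, and H3K27ac marks both active promoters and active enhancers. ChIP-seq reads over a peak rise with the modification on each copy of the locus and also with the number of copies in the cell, and MDA-MB-231 cells are aneuploid. From peak counts alone, less of a mark per copy and fewer copies cannot be told apart. The short arm, 9p, carries the CDKN2A and CDKN2B cell cycle inhibitor genes beside the type I interferon cluster. The long arm, 9q, carries the signalling genes PTCH1, TGFBR1, ABL1 and NOTCH1.

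Sequences are given for 4 promoter peaks with large local changes, whose counts are described below. Each is up to 300 bases around the middle of the peak, forward strand, read from GRCh37, the build of the files, and trimmed to a run outside exons of coding genes. Capitals mark matches on either strand to the letters TGANTCA (AP-1), GGAATG (TEAD) or GGGCGG (SP/KLF).
ENG promoter, chr9:130616198-130616497: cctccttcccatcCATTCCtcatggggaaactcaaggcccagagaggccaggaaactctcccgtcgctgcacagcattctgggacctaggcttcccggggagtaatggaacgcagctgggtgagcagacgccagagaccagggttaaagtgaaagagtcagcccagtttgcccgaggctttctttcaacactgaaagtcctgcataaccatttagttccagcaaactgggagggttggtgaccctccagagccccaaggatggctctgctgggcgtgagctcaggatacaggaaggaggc
RGS3 promoter, chr9:116356823-116357122: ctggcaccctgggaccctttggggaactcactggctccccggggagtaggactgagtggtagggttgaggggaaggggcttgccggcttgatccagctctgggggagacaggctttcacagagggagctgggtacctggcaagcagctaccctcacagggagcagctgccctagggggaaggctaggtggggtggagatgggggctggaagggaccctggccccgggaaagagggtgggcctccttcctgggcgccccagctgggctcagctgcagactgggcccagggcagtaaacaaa
TRPM3 promoter, chr9:73483750-73483901: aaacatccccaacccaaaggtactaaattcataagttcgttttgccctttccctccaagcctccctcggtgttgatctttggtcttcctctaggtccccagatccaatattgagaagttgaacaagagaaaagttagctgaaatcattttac
MVB12B promoter, chr9:129088958-129089107: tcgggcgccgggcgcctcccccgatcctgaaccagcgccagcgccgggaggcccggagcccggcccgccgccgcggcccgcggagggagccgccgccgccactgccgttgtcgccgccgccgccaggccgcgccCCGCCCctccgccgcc

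The GC content of these stretches ran from 42.1% at the TRPM3 promoter to 86.7% at the MVB12B promoter, and the MVB12B stretch held 29 CpG dinucleotides in 150 bases. The ENG stretch held 1 GGAATG match and the MVB12B stretch 1 GGGCGG match. In 300-base windows centred on all H3K4me3 peaks of chromosome 9, GGAATG was present in 12.1%, GGGCGG in 48.6% and TGANTCA in 7.29%. For H3K27ac peaks the shares were 17%, 18.1% and 13.7%. Among promoter peaks alone they were 9.85%, 59.5% and 2.74% for H3K4me3, and 12.4%, 48.4% and 4.79% for H3K27ac. The TRPM3 and MVB12B stretches, at 152 and 150 bases, are shorter than these windows. A match is a description of the letters and not of a bound factor.

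The share of reads that fell on chromosome 9 was lowest in BrM2 for both marks. For H3K4me3, replicates 1 and 2 gave 4.45% and 4.29% in Par. LM2 had 4.83% and 4.64%, and BrM2 3.61% and 3.48%. For H3K27ac, Par had 3.91% and 4.10%, LM2 4.36% and 4.39% and BrM2 3.17% and 3.19%. The values of the 3 lines did not overlap in either mark. Library totals over peaks ran from 3489607 to 9839629 counts for H3K4me3 and from 1994996 to 6450028 for H3K27ac. The shallowest library, replicate 2 of BrM2 H3K27ac, had under 10 counts in 49.1% of its chromosome 9 peaks, so its single-peak values are the least precise.

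The low share in BrM2 lay mainly on 9q beyond 90 Mb, a boundary chosen after the window values were seen. That distal part of 9q took 3.19% and 3.05% of H3K4me3 reads in Par against 2.45% and 2.36% in BrM2. For H3K27ac it took 2.72% and 2.99% in Par against 2.09% and 2.17% in BrM2. The share of 9p differed less, with 0.797% and 0.820% of H3K4me3 reads in Par and 0.755% and 0.765% in BrM2. Its H3K27ac shares were 0.716% and 0.696% in Par and 0.664% and 0.642% in BrM2.

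**Figure D1:**
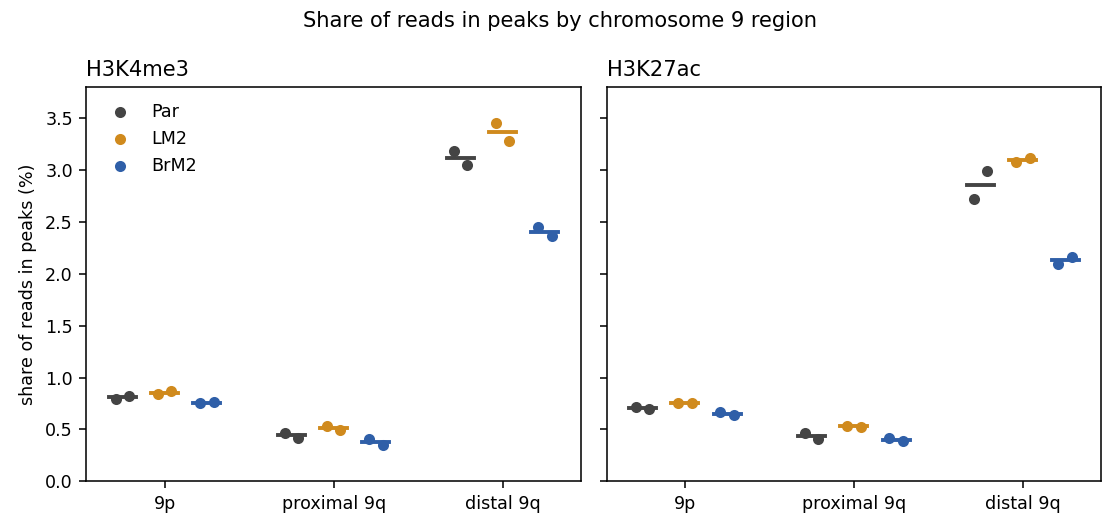
Share of reads in peaks (%, y axis from 0) taken by 9p, 9q below 90 Mb (proximal) and 9q from 90 Mb (distal), for H3K4me3 (left) and H3K27ac (right). Points are the 2 libraries of a line and bars their mean, and in distal 9q the BrM2 libraries, at 2.09% to 2.45%, lie below those of Par and LM2.

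Peak by peak, a line was set against Par as the difference of mean log2(CPM + 1), where CPM is the count scaled to a fixed library total of reads in peaks and the added 1 damps the ratio of weak peaks. In BrM2 the median over 726 H3K4me3 peaks of 9q was -0.32, with -0.28 and -0.33 when libraries of the same replicate number were compared. The median over 1958 H3K27ac peaks of 9q was -0.34, with -0.28 and -0.37 in the same-numbered pairs. On 9p the BrM2 medians were -0.04 over 221 H3K4me3 peaks and -0.06 over 506 H3K27ac peaks. In LM2 the 9q medians were 0.08 for H3K4me3 and 0.14 for H3K27ac.

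Relative to the median over the peaks of all other chromosomes, 9q in BrM2 stood at -0.37 ± 0.10 (SD, n = 2 libraries per line) for H3K4me3 and at -0.33 ± 0.06 for H3K27ac. This SD combines the spread of the libraries of both lines and takes no account of replicate number. Distal 9q stood at -0.39 and -0.36, and there 472 of 613 H3K4me3 and 1191 of 1611 H3K27ac peaks lay below Par. In LM2 the 9q values were 0.10 ± 0.14 and 0.11 ± 0.05. Same-numbered pairs of LM2 and Par gave 0.09 and 0.11 on 9q for H3K4me3, beside -0.03 and -0.002 on other chromosomes. For H3K27ac they gave 0.21 and 0.10, beside 0.06 and 0.02. Among 23 chromosomes ordered by their BrM2 median, chromosome 9 was in place 1 from the lowest for H3K4me3 and in place 2 for H3K27ac, after chromosome X. In LM2 it was in places 19 and 21.

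Along the chromosome the BrM2 level stepped down at about 90 Mb, but parts of 9q before that point were low as well. Beyond it lie 11 windows of 5 Mb, and for either mark all 11 were below 0 in both same-numbered pairs, against 28.2% of H3K4me3 and 37.0% of H3K27ac windows on other chromosomes. The chromosome and the boundary were both chosen from these BrM2 levels, so this count is a description only. The medians of the 11 windows ran from -0.46 to -0.24 for H3K4me3 and from -0.58 to -0.16 for H3K27ac. The windows just before the step, from 80 to 85 and from 85 to 90 Mb, stood at 0.14 and -0.01 for H3K4me3 and at 0.23 and 0.04 for H3K27ac. From 70 to 80 Mb the level was again below Par, at -0.19 and -0.22 for H3K4me3 and at -0.27 and -0.36 for H3K27ac. For H3K27ac the windows from 125 Mb on were the lowest of distal 9q, between -0.58 and -0.50.

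On 9p the BrM2 windows lay on both sides of 0. From 10 to 15 Mb both marks were above Par, at 0.17 for H3K4me3 and 0.31 for H3K27ac. From 25 to 30 Mb the median over 14 H3K4me3 peaks was 0.44 while that over 26 H3K27ac peaks was -0.03. In LM2 no window of either mark was at or below -0.3 relative to other chromosomes, and on distal 9q the LM2 medians ran from 0.0006 to 0.17 for H3K4me3 and from -0.03 to 0.28 for H3K27ac. The highest LM2 window of H3K27ac, at 0.83 from 40 to 45 Mb, rested on 9 peaks, and its same-numbered pairs gave 0.92 and 0.34.

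**Figure D2:**
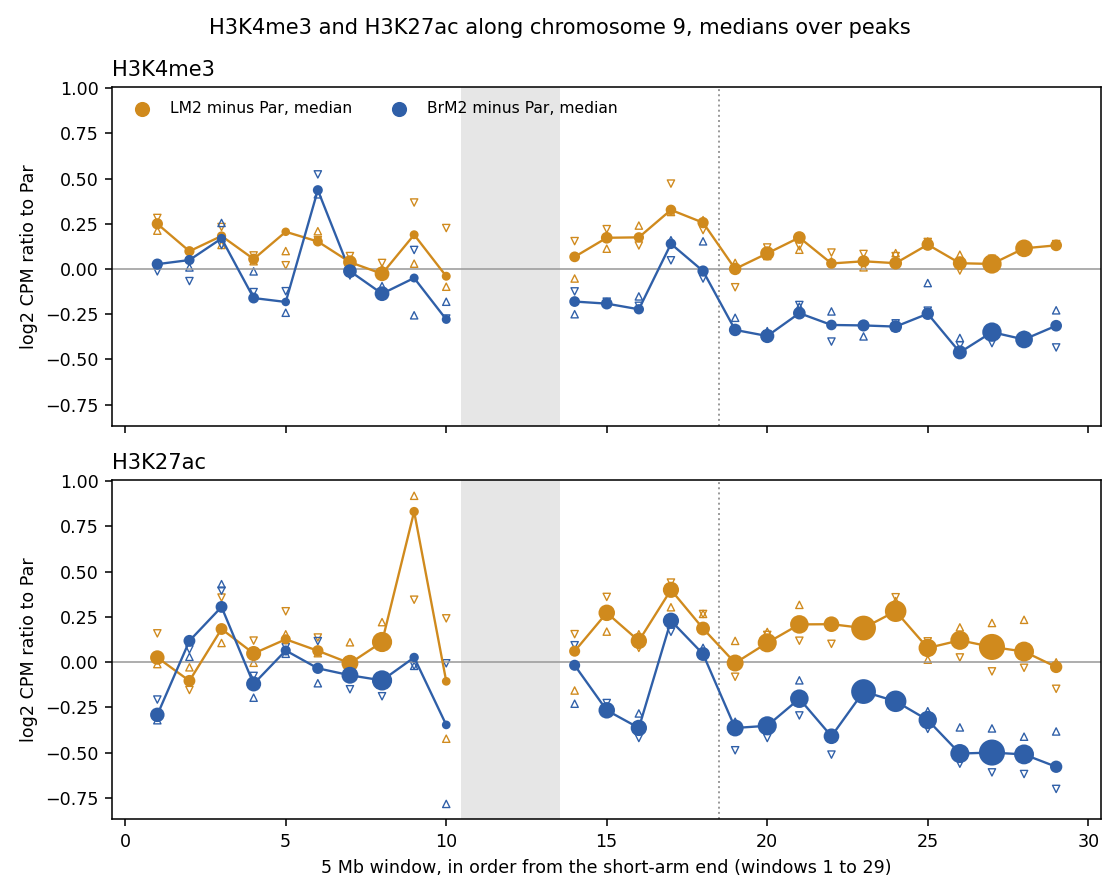
Median log2 CPM ratio to Par in 5 Mb windows ordered from the end of 9p, for LM2 (orange) and BrM2 (blue). Filled points grow with the number of peaks, open triangles are same-numbered pairs (up for replicate 1, down for 2), the grey band holds no peaks and the dotted line marks 90 Mb, beyond which all 11 BrM2 medians of each mark are below 0.

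The low level of distal 9q in BrM2 was seen in each class of peak examined. Set against the same class on other chromosomes, BrM2 H3K4me3 on distal 9q stood at -0.39 for 356 promoter peaks, that is peaks with a protein-coding start at most 2 kb away, and at -0.38 for 257 others. For H3K27ac the values were -0.45 for 403 promoter peaks and -0.32 for 1208 others. Peaks above and below the median height of the mark gave -0.39 and -0.40 for H3K4me3, and -0.45 and -0.26 for H3K27ac. H3K27ac peaks that overlap an H3K4me3 peak stood at -0.48, and those that do not at -0.28. On 9q below 90 Mb the same comparison gave -0.27 for H3K4me3 promoter peaks and -0.13 for others, and -0.31 and -0.08 for H3K27ac. Peaks above and below the median height gave -0.35 and -0.10 there for H3K4me3, and -0.25 and -0.08 for H3K27ac.

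The profiles of both marks were alike in BrM2. Over 23 windows with at least 8 peaks of each mark, the H3K4me3 median and the median of H3K27ac peaks outside H3K4me3 peaks had a Pearson r of 0.69 and a Spearman rho of 0.75. In LM2 the r was 0.32 and the rho 0.16. The windows of a mark share their libraries, so these values are descriptions. The sign was the same in 19 of 23 windows in either line.

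**Figure D3:**
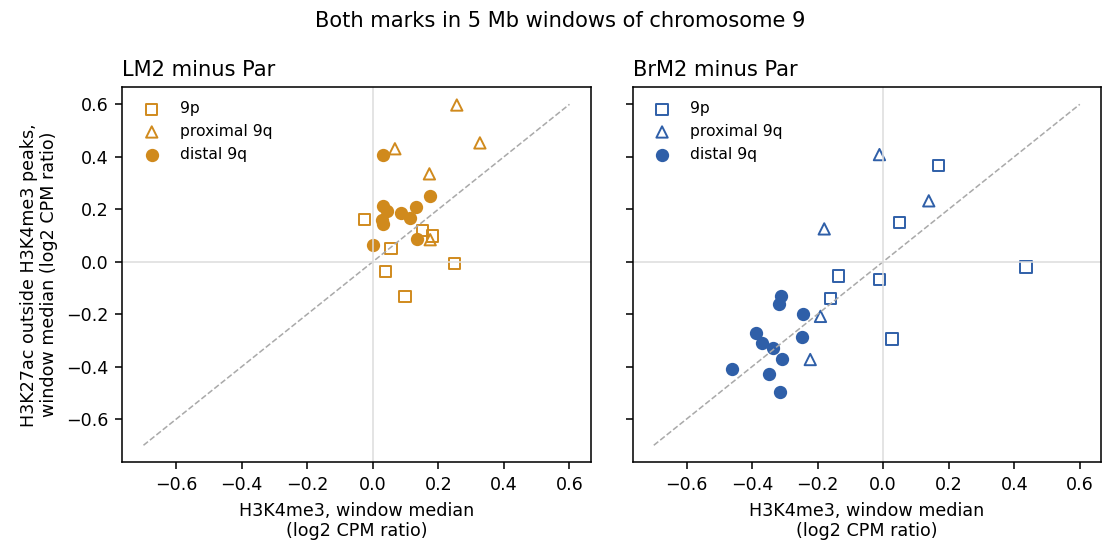
Window medians (log2 CPM ratio to Par) of H3K4me3 on the x axis and of H3K27ac peaks outside H3K4me3 peaks on the y axis, for LM2 (left) and BrM2 (right), over 23 windows. Squares are 9p, triangles proximal 9q, filled circles distal 9q and the dashed line marks equal values, and the distal 9q windows of BrM2 gather at the lower left.

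On 9p a stretch of 4.94 Mb, chr9:20735599-25677090 (hg19), held no peak of either mark. It lies between FOCAD and TUSC1 and holds 24 protein-coding genes. Among these are 16 interferon genes, the metabolic enzyme gene MTAP and the cell cycle inhibitor genes CDKN2A and CDKN2B. The nearest H3K27ac peak was 1235733 bp from a start of CDKN2A. Peaks were called on reads merged over the lines, so the absence covers Par as well. Genome-wide, 5 of 22548 gaps between neighbouring H3K4me3 peaks and 11 of 62172 between H3K27ac peaks were at least as long, centromeres included. The other long gap of the chromosome, of 19.6 Mb for H3K4me3, holds an unsequenced block of 18150000 bases at the centromere.

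CDKN2A, CDKN2B and MTAP were among 12 reference genes of the chromosome, and the other 9 had a promoter peak of both marks. Of their 18 peaks, DESeq2 called 0 as departing from the local level in LM2 or BrM2 against Par, with 0 at an unadjusted p under 0.05 and 0 called by edgeR. ABL1 on 9q encodes a non-receptor tyrosine kinase. Its promoter H3K4me3 was 15.8 and 20.4 CPM per kb in Par, while LM2 had 20.2 and 21.5 and BrM2 12.8 and 13.2. Both BrM2 libraries lay below both Par libraries. The log2 CPM ratio of BrM2 to Par was -0.46, and the locally centred log2 fold change was -0.11 ± 0.29 (SE). NOTCH1, which encodes a receptor of cell-cell signalling, had 70.1 and 51.8 CPM per kb of H3K4me3 in Par, and LM2 had 76.2 and 56.4. With 56.5 and 34.5, BrM2 overlapped the range of Par, while at each replicate number it was below Par. The locally centred change was -0.01 ± 0.33.

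For the rest of 9q, the BrM2 log2 CPM ratio of H3K4me3 was -0.35 at the hedgehog receptor gene PTCH1, -0.54 at TGFBR1, a TGF-beta receptor gene, and -0.33 at the transcription factor gene KLF4. TNC, which encodes the matrix protein tenascin C, was at 0.10. On 9p the ratio was 0.01 at the cytokine receptor kinase gene JAK2, 0.61 at CD274, which encodes PD-L1, and 0.19 at the transcription factor gene NFIB. The CD274 libraries overlapped, with 10.3 and 20.6 CPM in Par and 19.2 and 27.1 in BrM2. For H3K27ac the BrM2 ratios were -0.59 at PTCH1, -0.64 at TGFBR1, -0.6 at KLF4 and -0.38 at TNC. On 9p they were -0.29 at JAK2, 0.22 at CD274 and 0.18 at NFIB. With the replicate number as a block, the NFIB H3K4me3 peak passed the DESeq2 test as higher than its surroundings, by 0.43, in BrM2 against Par (adjusted p = 0.0156).

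It was next asked which peaks left the level of their neighbours. Counts were fitted genome-wide with DESeq2 after division by the library size factor and by the median of the 5 Mb window in each library, and p-values were adjusted over all peaks of the mark. Windows with few peaks took the chromosome median instead. Centred counts below are on that scale, and fold changes are centred unless stated. For H3K4me3 in LM2, 17 peaks of chromosome 9 were higher and 4 lower, against a background of 1.65% and 0.456% over all peaks tested. In BrM2, 26 were higher and 2 lower, against 2.38% and 0.576%. For H3K27ac in LM2, 52 were higher and 12 lower, against 2.43% and 0.565%. In BrM2, 69 were higher and 14 lower, against 2.95% and 0.937%. Of the chromosome 9 peaks with an adjusted p, calls in either direction made up 2.46% in LM2 and 3.07% in BrM2 for H3K4me3, and 3.55% and 4.26% for H3K27ac. The genome-wide shares were 2.1%, 2.95%, 3% and 3.88%, so chromosome 9 was near the background once centred.

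The centring sets the split of the BrM2 H3K27ac calls. Without it, 56 H3K27ac peaks were higher and 65 lower in BrM2, beside uncentred backgrounds of 3.65% and 1.69%, and 63 of the 65 were on 9q. For H3K4me3 in BrM2, 22 were higher and 6 lower, beside 2.91% and 0.825%. These use the contrast that chose the chromosome and are a description. The number of centred calls depended on the tool and on the replicate number as a block. edgeR called 9 H3K4me3 peaks in LM2, against a background of 0.864%, and 17 in BrM2, against 1.67%. With the block DESeq2 called 69, against 7.97%, and 74, against 9.77%. For H3K27ac, edgeR called 110 in LM2, against 3.99%, and 114 in BrM2, against 4.89%, and the block gave 82, against 3.87%, and 97, against 5.68%.

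No library could be left out without loss of calls in the contrasts it enters. Without replicate 1 or 2 of Par, the LM2 calls numbered 7 and 6 for H3K4me3 and 14 and 15 for H3K27ac, and without replicate 1 or 2 of LM2 they numbered 5 and 9, and 13 and 19. Leaving out a BrM2 library, which enters only through the shared spread, gave 13 and 13 for H3K4me3 and 39 and 44 for H3K27ac. The BrM2 calls numbered 18 and 13 for H3K4me3 and 34 and 35 for H3K27ac without replicate 1 or 2 of Par, and 14 and 16, and 23 and 29, without replicate 1 or 2 of BrM2.

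Of the centred calls, 9 H3K4me3 and 28 H3K27ac peaks were called in the same direction in both metastatic lines, which share the Par libraries, and 1 H3K4me3 peak, at the PLPPR1 promoter, in opposite directions. Tested directly, 18 H3K4me3 peaks were higher and 8 lower in BrM2 than in LM2, against 1.79% and 0.884%, or 2.68% in either direction. For H3K27ac, 20 were higher and 8 lower, against 1.07% and 0.639%, or 1.71% in either direction. The centring turned this split as well. Uncentred, 11 H3K4me3 peaks were higher and 20 lower, beside 2.17% and 1.21%, and 7 H3K27ac peaks were higher and 55 lower, beside 1.74% and 1.24%. With the replicate block the centred direct calls came to 78 for H3K4me3, against 11.3%, and to 44 for H3K27ac, against 2.76%. edgeR gave 9, against 1.46%, and 49, against 2.38%. Without replicate 1 or 2 of BrM2, 9 and 5 H3K4me3 and 1 and 7 H3K27ac peaks were called. Without replicate 1 or 2 of LM2, the counts were 10 and 6, and 6 and 9. Without replicate 1 or 2 of Par, which enters only through the shared spread, 18 and 19 H3K27ac peaks were called.

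Of 784 H3K27ac peaks that overlap an H3K4me3 peak, 28 were called in BrM2 against Par, as were 20 of their H3K4me3 partners. Over the genome, 3.88% of H3K27ac and 2.95% of H3K4me3 peaks were called in that comparison in either direction, so these counts are near the background. Both marks were called at 13 of these pairs, and the direction was the same at all 13. In LM2 both were called at 5, and the direction was the same at all 5.

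Several calls lay close together, in intervals that were outlined after their values were seen and are described without a test of the interval. Peaks were called on merged reads, so sites nearly without Par reads are peaks only because another line is high there. A count of peaks above Par in an interval is thus partly set by the calling. In the gene-poor 28 to 32 Mb of 9p around LINGO2, all 15 H3K4me3 peaks were above Par in BrM2. Their median log2 CPM ratio was 1.42 against -0.11 over 88 peaks within 5 Mb on either side. In LM2, 14 of the 15 were above Par, at a median of 0.79. All 13 H3K27ac peaks there were above Par in both lines, at a median of 1.54 in LM2 and 1.81 in BrM2. The PCSK5 interval, 78 to 79 Mb, held 5 H3K27ac peaks, all above Par, at medians of 1.39 in LM2 and 2.40 in BrM2. From RASEF to SLC28A3, 85 to 88 Mb, the H3K27ac median over 33 peaks was 0.67 in LM2 and 0.87 in BrM2.

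In the DAPK1 interval, 89 to 91 Mb, the H3K27ac median over 12 peaks was 0.95 in BrM2 and 0.13 in LM2. In each line 7 of the 12 peaks lay above Par, and 4 of the 12 were called higher in BrM2 than in LM2, beside 1.07% of H3K27ac peaks over the genome. In the PAPPA interval, on distal 9q, all 62 H3K27ac peaks were above Par in LM2, at a median of 1.11 against 0.09 over 358 flanking peaks. In BrM2, 42 of the 62 were above Par, at 0.27 against a flank of -0.28. Of the 62, 12 were called higher in LM2 and 8 in BrM2 after centring, beside 2.43% and 2.95% over the genome.

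**Figure D4:**
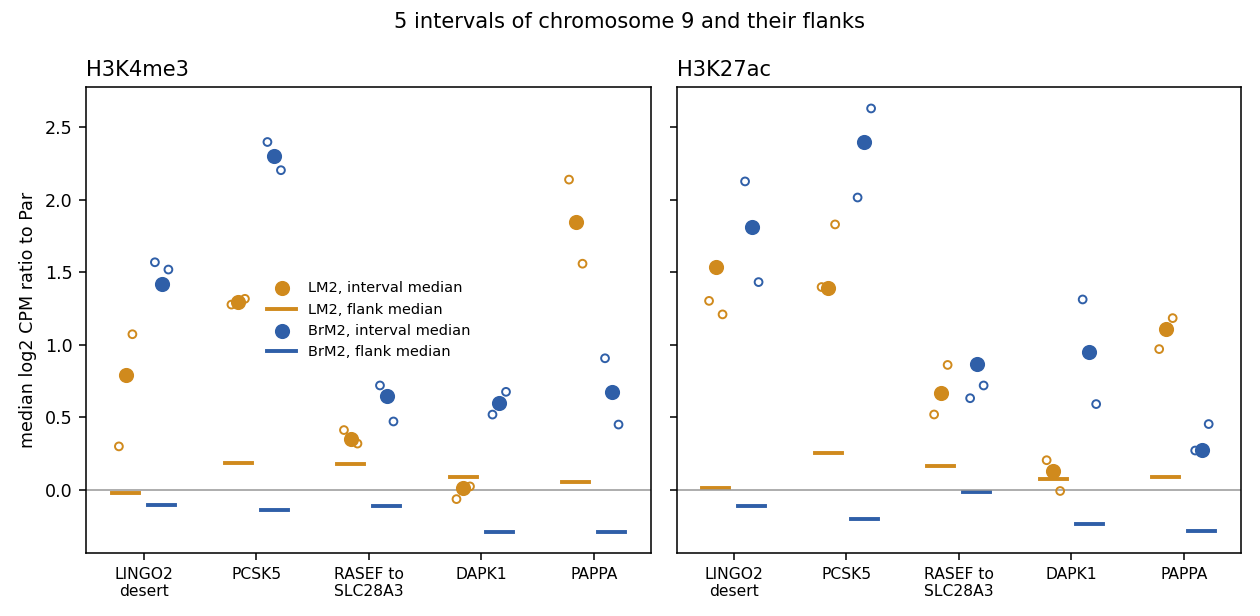
Median log2 CPM ratio to Par of 5 intervals that were outlined after their values were seen, for H3K4me3 (left) and H3K27ac (right). Large points are medians over the peaks of the interval, open points the same-numbered pairs and bars the median over peaks within 5 Mb on either side. For H3K27ac, LM2 is at 1.11 in the PAPPA interval and at 0.13, close to its flank, in the DAPK1 interval.

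Among promoters, the largest named rise in both lines was at ENG, which encodes endoglin, a TGF-beta co-receptor. Its H3K4me3 peak, chr9:130615596-130617099, had centred counts of 0.0 and 4.61 in Par. LM2 had 62.9 and 87.3, and BrM2 156 and 168. The 3 lines did not overlap. The peak was higher by a log2 fold change of 4.66 ± 0.74 (SE) in LM2 (DESeq2, adjusted p = 2.10e-07) and of 5.76 ± 0.74 in BrM2 (adjusted p = 6.07e-12). The H3K27ac peak over it was higher in BrM2 by 2.81 ± 0.57 (adjusted p = 1.06e-04). In LM2 it stood at 1.73 ± 0.56, with an adjusted p of 0.0605 in DESeq2, 0.0455 with the replicate block and 0.0273 in edgeR.

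RASEF encodes a Ras-related GTPase with EF-hand motifs. Its promoter H3K4me3, chr9:85676339-85678503, had centred counts of 30.3 and 37.3 in Par, against 320 and 284 in LM2 and 596 and 305 in BrM2. All metastatic libraries exceeded those of Par, and LM2 overlapped BrM2. LM2 exceeded Par by 3.14 ± 0.42 (adjusted p = 6.11e-11) and BrM2 by 3.72 ± 0.42 (adjusted p = 1.23e-15). At its H3K27ac peak they did so by 3.52 ± 0.76 and 4.01 ± 0.77.

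RGS3 encodes a regulator of G protein signalling. Its promoter H3K4me3, chr9:116355895-116358050, had centred counts of 27.1 and 22.6 in Par, against 114 and 212 in LM2 and 138 and 194 in BrM2. LM2 exceeded Par by 2.75 ± 0.47 (adjusted p = 1.64e-06) and BrM2 by 2.77 ± 0.47 (adjusted p = 8.43e-07). The broad H3K27ac peak over this promoter was not called, at 0.30 ± 0.37 in LM2 and 0.04 ± 0.40 in BrM2.

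PAPPA encodes pappalysin, a secreted metalloproteinase that cleaves IGF-binding proteins. Its promoter H3K4me3, chr9:118915283-118920241, had centred counts of 161 and 138 in Par, against 1047 and 787 in LM2 and 606 and 489 in BrM2. The 3 lines did not overlap, with LM2 highest. LM2 exceeded Par by 2.62 ± 0.31 (adjusted p = 1.29e-13) and BrM2 by 1.88 ± 0.31 (adjusted p = 5.86e-07). BrM2 differed from LM2 by -0.74 ± 0.30, with an adjusted p of 0.277, and of 7.83e-06 with the replicate block.

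PCSK5 encodes a proprotein convertase. An H3K27ac peak in its intron, chr9:78828335-78834775, had centred counts of 6.18 and 13.6 in Par, against 129 and 126 in LM2 and 251 and 242 in BrM2. It was higher by 3.75 ± 0.43 in LM2 (adjusted p = 1.77e-14) and by 4.70 ± 0.44 in BrM2 (adjusted p = 8.09e-23). At its promoter, H3K4me3 was higher by 1.24 ± 0.29 in LM2 and by 1.63 ± 0.29 in BrM2.

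Other promoters set BrM2 apart. DAPK1 encodes death-associated protein kinase, a pro-apoptotic kinase. Its promoter H3K4me3, chr9:90112196-90113983, had centred counts of 25.3 and 12.8 in Par and of 7.20 and 4.18 in LM2, while BrM2 had 370 and 173. BrM2 exceeded Par by 3.90 ± 0.53 (adjusted p = 1.02e-10) and LM2 by 5.69 ± 0.62 (adjusted p = 8.75e-17). LM2 stood at -1.79 ± 0.67 against Par, with an adjusted p of 0.213, and of 0.0262 with the replicate block. The H3K27ac peak of the promoter was higher in BrM2 than in Par by 2.77 ± 0.71 (adjusted p = 0.00541), and it was called in 2 of 6 fits that each leave out a library.

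PLPPR1 encodes a phospholipid phosphatase-related membrane protein. Its promoter H3K4me3, chr9:103790345-103791885, had centred counts of 24.97 and 20.62 in Par and of 1.18 and 3.93 in LM2, while BrM2 had 235 and 180. The 3 lines did not overlap. LM2 stood at a log2 fold change of -2.91 ± 0.69 from Par (adjusted p = 0.00275, and 0.0501 in edgeR) and BrM2 at 3.20 ± 0.48 (adjusted p = 1.24e-08). The direct difference of BrM2 from LM2 was 6.11 ± 0.66 (adjusted p = 2.38e-17).

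LINGO2 encodes a transmembrane protein with leucine-rich repeats. Its promoter H3K4me3, chr9:29213305-29215147, had centred counts of 0.0 and 6.05 in Par and of 1.57 and 4.62 in LM2, while BrM2 had 63.8 and 70.1. BrM2 exceeded Par by 4.16 ± 0.90 (adjusted p = 4.33e-04). A distal H3K4me3 peak lies 1134185 bp from the nearest protein-coding start. It had 1 and 2 reads in Par, 3 and 15 in LM2, and BrM2 had 53 and 163. Normalized, BrM2 stood 60.2 times above Par, with an exact 95% interval of 20.3 to 294 that covers counting error only. A further H3K4me3 peak, 68725 bp from a start of the nucleoside transporter gene SLC28A3, was higher in BrM2 by 4.81 ± 0.92 (adjusted p = 2.64e-05).

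Among distal H3K27ac peaks, one 110115 bp from a start of PTCH1 had 1 and 1 reads in Par, against 46 and 40 in LM2 and 28 and 16 in BrM2. The normalized ratio to Par was 31.6 in LM2, with a counting interval of 8.48 to 265, and 42.6 in BrM2, with 11.1 to 363. One 219931 bp from DAPK1 had 3 and 1 reads in Par and 21 and 7 in LM2, while BrM2 had 104 and 34. BrM2 exceeded LM2 there by 3.40 ± 0.54 (adjusted p = 6.16e-07). An intronic peak of RXRA, which encodes a retinoid X receptor, was higher by 3.47 ± 0.69 in LM2 (adjusted p = 9.47e-05) and by 2.49 ± 0.74 in BrM2 (adjusted p = 0.0266, and 0.141 without centring). A site 207183 bp from CYLC2 was higher by 3.39 ± 0.80 in LM2 and by 4.35 ± 0.81 in BrM2. For H3K4me3, a site 29742 bp from a start of NOTCH1 was higher in LM2 by 3.44 ± 0.69 (adjusted p = 1.20e-04), as was one 446092 bp from ACO1 by 2.83 ± 0.62 (adjusted p = 8.09e-04, and 0.0564 in edgeR).

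**Figure D5:**
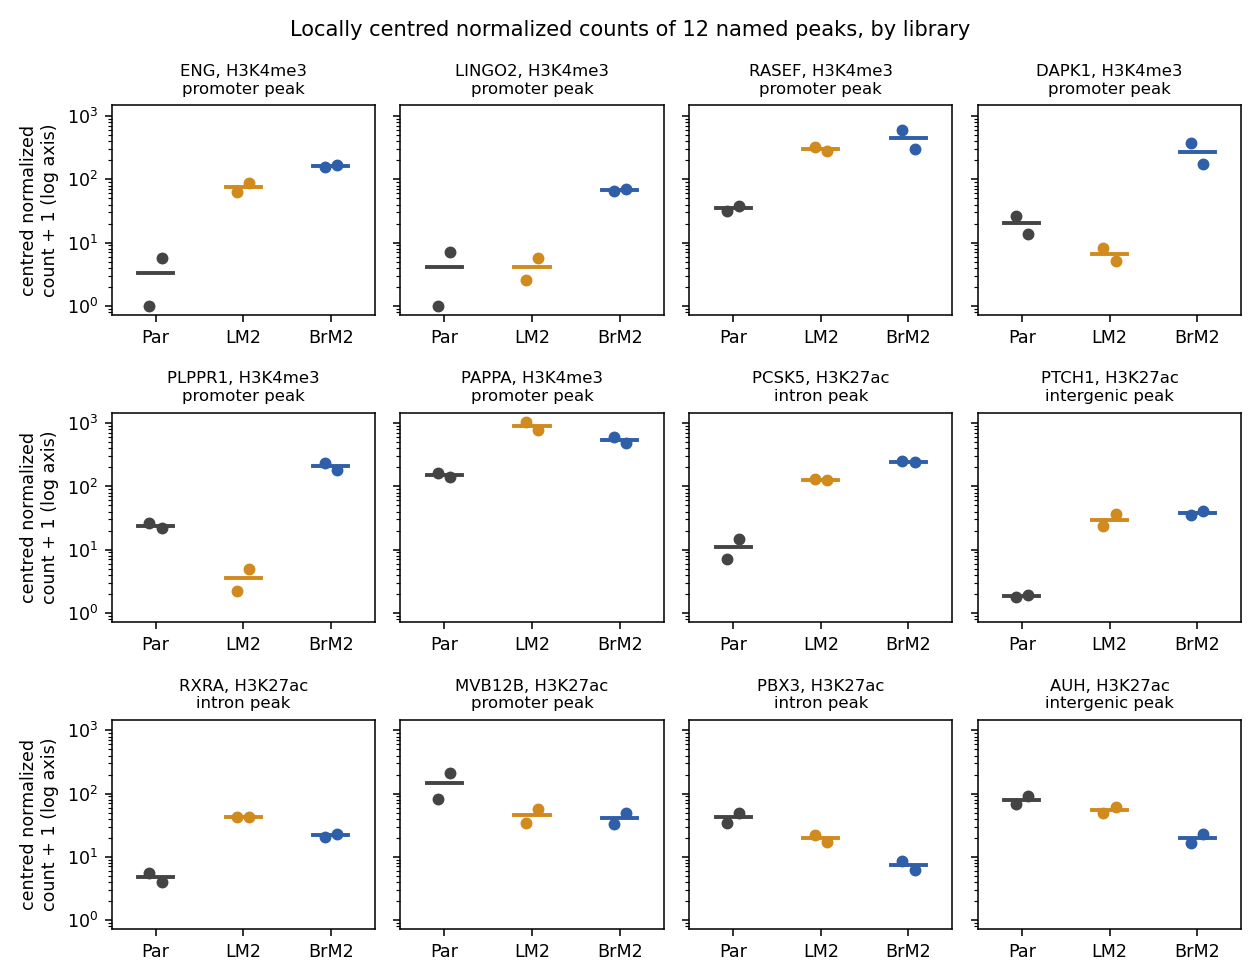
Locally centred normalized counts plus 1 (log axis) of 12 named peaks in each library of Par, LM2 and BrM2. Points are the 2 libraries of a line and bars their mean. At PLPPR1 the BrM2 libraries, at 235 and 180 before adding 1, lie above Par and the LM2 libraries below it.

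Falls were fewer. MVB12B encodes a subunit of the ESCRT-I sorting complex, and its promoter H3K27ac, chr9:129088279-129089936, had centred counts of 80.6 and 207 in Par, against 33.4 and 56.6 in LM2 and 31.8 and 48.2 in BrM2. All metastatic libraries were below both Par libraries, which themselves differed widely. LM2 stood at -1.69 ± 0.46 from Par (adjusted p = 0.0124) and BrM2 at -1.88 ± 0.49 (adjusted p = 0.00732), called in 2 and 3 of 6 fits that each leave out a library. The H3K4me3 peak of this promoter stood at -0.86 ± 0.31 in BrM2, with an adjusted p of 0.133, and of 2.98e-04 with the replicate block.

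In LM2 an H3K27ac peak inside TTLL11, 157361 bp from a start of the Ras GTPase-activating protein gene DAB2IP, had centred counts of 15.1 and 13.4, while Par had 85.6 and 76.5 and BrM2 27.8 and 36.4. It was lower in LM2, at -2.50 ± 0.45 (adjusted p = 8.46e-06). BrM2 stood at -1.37 ± 0.46, where the adjusted p was 0.0637, 0.0446 with the replicate block, 0.025 in edgeR and 0.00583 without centring. Intronic H3K27ac peaks of PALM2AKAP2, which encodes an A-kinase anchoring protein, and of PLAA, a phospholipase A2 activating protein gene, were lower in LM2, at -1.86 ± 0.40 and -1.90 ± 0.51. The promoter H3K4me3 of the cyclin-dependent kinase gene CDK20 was lower in LM2, at -2.10 ± 0.54 (adjusted p = 0.00798, and 0.0634 in edgeR). A peak in an exon of SH2D3C, named by the nearest start, that of TOR2A, was at -2.05 ± 0.62 in LM2 (adjusted p = 0.0465, and 0.146 in edgeR).

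In BrM2 an intronic H3K27ac peak of PBX3, a homeodomain transcription factor gene, had centred counts of 7.63 and 5.08, while Par had 33.6 and 48.7 and LM2 21.3 and 16.1. It was lower than in Par, at -2.63 ± 0.73 (adjusted p = 0.0139). Distal H3K27ac peaks 208775 bp from AUH and 555637 bp from TMEM38B were each lower in BrM2, at -2.13, with adjusted p of 0.00144 and 0.00169. The promoter H3K4me3 of the cation channel gene TRPM3 had centred counts of 7.63 and 19.1 in BrM2, while Par had 39.0 and 88.1 and LM2 24.8 and 53.8. Its change in BrM2 was -2.21 ± 0.68 (adjusted p = 0.0407, and 0.17 in edgeR), and 0 of 6 fits that each leave out a library called it. An H3K27ac peak near SPATA31D4 was lower in both lines, at -4.46 ± 0.68 in LM2 and -3.55 ± 0.70 in BrM2, but that gene belongs to a multi-copy family whose copies may share reads, so the value is uncertain.

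By function, few promoters left their local level, and no list had a promoter called lower. The gene lists were chosen with earlier results of these data known, so counts of calls within them are descriptions only. Of the tumour suppressor and genome stability genes with a promoter peak, 1 of 15 was called in BrM2 against Par in each mark, and in both it was DAPK1. The median local log2 fold change of the 15 was -0.10 for H3K4me3, beside -0.06 over all 548 H3K4me3 promoter peaks of the chromosome. Of the receptors, kinases and signalling genes, 4 of 25 H3K4me3 promoters were higher in BrM2 and 1 in LM2. These were the tyrosine phosphatase gene PTPRD at 2.58 ± 0.49, the lipid kinase gene PIP5K1B at 1.64 ± 0.34, the sphingosine-1-phosphate receptor gene S1PR3 at 1.52 ± 0.39 and the exchange factor gene DOCK8 at 1.16 ± 0.36 in BrM2, with DOCK8 also at 1.54 ± 0.36 in LM2. PTPRD lies in a window of 8 H3K4me3 peaks, and without centring its change in BrM2 was 2.29 (DESeq2, adjusted p = 3.14e-04). In BrM2 the adjusted p at S1PR3 was 0.0572 in edgeR and 0.0811 without centring. At DOCK8 it was 0.0749 and 0.148, and DOCK8 was called there in 0 of the 6 fits that each leave out 1 library. The median over the 25 in BrM2 was -0.01.

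Of the matrix, adhesion and secreted genes, 3 of 24 H3K4me3 promoters were higher in LM2 and 3 in BrM2, in both lines ENG, PAPPA and PCSK5. The median over the 24 was 0.15 in LM2 and 0.07 in BrM2. For H3K27ac, 3 of 26 were higher in BrM2, again these genes, and 1 in LM2, PAPPA. The PCSK5 promoter call had an adjusted p of 0.0857 without centring and was made in 0 of the 6 fits that leave out 1 library. H3K27ac calls in either direction made up 2.48% of promoter peaks of the chromosome in BrM2 and 0.546% in LM2. Over all H3K4me3 promoter peaks of the chromosome, calls in either direction made up 2.21% in LM2 and 3.30% in BrM2. Of 28 transcription factor promoters with H3K4me3, 1 was called in BrM2 against Par, that of DMRT2, a gene of the doublesex family, at 2.24 ± 0.66 (adjusted p = 0.0281, and 0.12 in edgeR). In the chromatin regulator list 1 of 18 was called, for H3K4me3 in BrM2 against LM2. It was SUSD3, at 1.35 ± 0.36 (adjusted p = 0.00891, 0.0511 in edgeR and 0.331 without centring), and that gene encodes a membrane protein and no chromatin regulator. Of 36 metabolic and housekeeping gene promoters with H3K4me3, DESeq2 called 0 in BrM2 against Par, with 1 at an unadjusted p under 0.05 and 0 called by edgeR. Of 9 immune gene promoters with H3K4me3, DESeq2 called 0 in BrM2 against Par, with 0 at an unadjusted p under 0.05 and 0 called by edgeR.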

How the data were processed

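ChIP-seq for H3K4me3 and H3K27ac was analysed in 12 libraries of Par, LM2 and BrM2 cells, 2 replicates per line and mark. The authors deposited raw counts per consensus peak on hg19, made with featureCounts 1.6.0 per the file headers, with reads extended by 150 bases. The submitters' processing notes also name Trimmomatic 0.32, Bowtie2 2.3.4.3, Picard 2.18.21, MACS2 2.1.2 and HOMER 4.10. The study's methods called peaks on the merged reads of each mark, so a peak is defined over all lines. Merged calling favours sites that are strong in at least 1 line.

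Counts were fitted genome-wide with DESeq2 1.42.0 (Wald test, line as the term, 3 residual degrees of freedom, R 4.3.3). Normalization factors held the size factor times the median of the 5 Mb window in each library, and windows with under 8 peaks of mean normalized count 10 took the chromosome median. In such windows a centred value is set against the chromosome and not against neighbouring peaks. Calls had a Benjamini-Hochberg adjusted p under 0.05 over all peaks. edgeR 4.0.16 was the alternative tool. Arms were split at 49 Mb. Genes came from GENCODE 44 lifted to GRCh37, and peaks were named by the nearest protein-coding start. The peaks named were the 5 largest rises and falls per mark and line whose mean normalized count reached 20 and whose groups do not overlap, then 12 reference genes and at most 4 genes with called promoters from each of 7 lists. The members and lists were chosen with earlier results of these data known. Tested on simulated BrM2 against Par data, the H3K4me3 fit recovered 77% of changes of 2 on the log2 scale and 15% of changes of 1. The H3K27ac fit recovered 62% and 8%. Each share is over 100 changed peaks, and recovery at weak peaks was not tested separately.

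Replicate numbers paired the libraries: what a library departs by from its line's mean correlated across lines at the same number, with r from 0.779 to 0.837 for H3K4me3 and from 0.344 to 0.483 for H3K27ac. The study's methods call the replicates biological, and neither they nor the labels name separate cultures for them, so p-values measure the spread between these libraries, which may be partly technical. Counts of replicates differed by more than sampling noise (chi-square per degree of freedom 2.66 to 14.4). Intervals cover counting error only. Certain items are not reported here.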

Additional observations from a re-analysis of the deposited data

Results flagged for a closer look

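At 14 of the named peaks the change in LM2 and the change in BrM2 differed in the direct DESeq2 test, with the following log2 differences of BrM2 from LM2. The H3K4me3 differences were 6.11 at the PLPPR1 promoter, 4.24 at the LINGO2 promoter and 3.88 at the LINGO2 distal site. They were 3.21 at the site near SLC28A3, 2.56 at an intronic peak of PCSK5, 1.99 at the SH2D3C exon near TOR2A and 1.83 at the CDK20 promoter. The H3K27ac differences were 3.4 at the site 219931 bp from DAPK1 and 1.47 at the intronic peak of PALM2AKAP2. At promoters named from the gene lists they were 5.69 for H3K4me3 and 4.01 for H3K27ac of DAPK1, and 2.64 at DMRT2, 1.51 at PTPRD and 1.35 at SUSD3 for H3K4me3. All 14 were higher in BrM2, but they come from peaks named by rule. Over all chromosome 9 peaks the same test called 18 H3K4me3 peaks higher in BrM2 and 8 lower. For H3K27ac it called 20 higher and 8 lower. The genome-wide shares called in either direction were 2.68% and 1.71%. In edgeR the adjusted p of the direct difference was 9.72e-04 at PLPPR1, 0.0316 and 0.00836 at the LINGO2 peaks, 1.59e-04 at the DAPK1 site, 0.00235 and 4.21e-04 at the DAPK1 promoter for H3K4me3 and H3K27ac, and 0.0217 at PALM2AKAP2. It missed the threshold at SLC28A3 (0.0808), PCSK5 (0.167), TOR2A (0.125), CDK20 (0.0885), DMRT2 (0.0756), PTPRD (0.11) and SUSD3 (0.0511). Without centring the call was lost at PALM2AKAP2 (0.111), PCSK5 (0.0662), TOR2A (0.252), CDK20 (0.0863), PTPRD (0.249) and SUSD3 (0.331). The uncentred difference at PTPRD was 1.08. Its window, from 10 to 15 Mb with 8 H3K4me3 peaks, stood at 0.18 in LM2 and 0.17 in BrM2. The centred 1.51 is thus not a difference relative to neighbouring peaks. PALM2AKAP2, TOR2A, CDK20 and PTPRD were called in 0 of the 6 fits that each leave out 1 library. Groups of 2 libraries are too small for a test of single outlying libraries.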

How the results depend on the processing

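The arm medians, given relative to other chromosomes, kept their direction under all alternatives run except that of H3K27ac on 9p in LM2, which was -0.017 outside H3K4me3 peaks. The H3K27ac 9q value of BrM2, -0.332, was -0.394 with 0.25 CPM added, -0.407 over peaks with a mean CPM of at least 5, -0.392 from summed reads and -0.251 outside H3K4me3 peaks. The 9p value of LM2 was 0.083 for H3K4me3 and 0.124 over peaks of at least 5 CPM. For H3K27ac it was 0.025, and 0.075 with the replicate block and 0.098 from summed reads. Leaving out each library in turn gave for H3K4me3 -0.164 to -0.079 (9p, BrM2), 0.049 to 0.094 (9p, LM2), -0.397 to -0.282 (9q, BrM2) and 0.063 to 0.214 (9q, LM2). For H3K27ac it gave -0.12 to -0.041, 0.038 to 0.101, -0.367 to -0.287 and 0.08 to 0.154 in the same order.

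Counts of centred calls moved with the tool, the block and single libraries. For H3K4me3, edgeR called 9 in LM2, 17 in BrM2 and 9 directly, and the replicate block 69, 74 and 78. For H3K27ac, edgeR called 110 in LM2 and 49 directly, and the block 44 directly. The cause was not tested. Leaving out each library in turn gave for H3K4me3 5 to 13 (LM2), 13 to 28 (BrM2) and 5 to 20 (direct), and for H3K27ac 13 to 44, 23 to 68 and 1 to 19. The fewest direct H3K27ac calls came without replicate 1 of BrM2. Counts against Par stayed within 1.5 times of the reported ones with 10 Mb windows, chromosome medians, TMM factors, a filter on low counts and no centring.

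The 34 fold changes of the 27 peaks named for the largest changes kept their direction in every alternative with a value, and 29 stayed called in every alternative that used all libraries. The exceptions were ACO1, PLPPR1, CDK20 and TOR2A in LM2 and TRPM3 in BrM2 under edgeR, and TOR2A without centring (adjusted p = 0.0627). Promoters named from the gene lists are not among them. There, calls in BrM2 were lost in edgeR at S1PR3 (H3K4me3), DOCK8 and DMRT2, and without centring at S1PR3 (0.0811 for H3K4me3 and 0.0689 for H3K27ac), DOCK8 and the H3K27ac of PCSK5. Among the 34, most lost calls, 15, came without replicate 2 of Par. With 2 libraries per line and under 10 counts in 49.1% of chromosome 9 peaks of the shallowest library, changes of weak peaks are poorly resolved.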
